A study of Mus musculus with 8 samples.

Results

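The sites described here are 2529 promoter sites of the glucocorticoid receptor (GR) that were held by corticosterone-treated mouse livers and by neither control nor calorically restricted livers. They were drawn from chromatin immunoprecipitation followed by sequencing (ChIP-seq) of GR, which gave 1 list of peaks for each of 6 liver libraries. Peaks that shared at least 1 bp were joined into 51431 sites. A group held a site where each of its 2 lists had a peak. NR+CORT alone held 7828 sites, of which 2529 (32.3%) had their centre within 1 kb of a transcript start and are called NR+CORT-only promoter sites. All of them were chosen by the presence and absence of peaks, so that their peaks in NR+CORT and their missing peaks elsewhere describe the choice and were not tested.

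All mice were C57BL/6J males on regular chow, and the tissue was whole liver. The NR group, the control, had free access to food until the final week and was then fed only at night. The CR group was calorically restricted in steps and fed daily at lights off. The NR+CORT group was fed at night like the control and received daily injections of corticosterone, the main glucocorticoid hormone of mice. Each group had 2 libraries from separate livers taken at lights off, and a merged list of FOXO1 peaks came from 2 libraries of CR livers. FOXO1 is a forkhead transcription factor of the fasted liver. The labels name no vehicle injection for NR, and whole liver mixes hepatocytes with other cells.

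GR is a nuclear receptor that enters the nucleus when it binds glucocorticoid and settles on glucocorticoid response elements (GREs), inverted repeats of a short hexamer that lie mostly in enhancers far from genes. GR is also found at promoters, often without such an element, where it can be held by other DNA-bound factors or by the transcription machinery. Many mammalian promoters, above all those of genes used by every cell, are CpG islands. These are stretches rich in G, C and undepleted CpG pairs that bind factors of the ETS, SP/KLF, NRF1, NFY and YY1 families.

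The sequences under the summits, the points of highest coverage, show what kinds of DNA were chosen. Each spans 150 bp with the summit of an NR+CORT peak, of the library that ranked it higher, at its middle, read from the mm10 (GRCm38) reference on the strand of the nearest transcript and written 5′ to 3′. Capitals mark matches on either strand to 15 consensus strings that are spelled out further on. The 5 sites of the first set were the highest-ranked members, or the highest-ranked without any NR or CR peak, whose window touched no untranslated region. They lay at Fetub (chr16:22918786-22918935, plus strand), Gm47596 (chr9:45113144-45113293, minus strand), Jmjd1c (chr10:67126454-67126603, plus strand), Ccni (chr5:93205341-93205490, minus strand) and Gm26674 (chr10:8883868-8884017, plus strand).
Fetub: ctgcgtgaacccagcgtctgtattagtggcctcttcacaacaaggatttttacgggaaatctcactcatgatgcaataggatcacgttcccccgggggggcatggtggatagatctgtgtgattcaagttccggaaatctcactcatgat
Gm47596: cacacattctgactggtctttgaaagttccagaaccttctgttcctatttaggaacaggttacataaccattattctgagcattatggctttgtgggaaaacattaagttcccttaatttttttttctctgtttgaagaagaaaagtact
Jmjd1c: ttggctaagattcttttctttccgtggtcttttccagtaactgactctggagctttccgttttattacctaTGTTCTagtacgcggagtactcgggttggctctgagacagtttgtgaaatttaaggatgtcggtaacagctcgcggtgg
Ccni: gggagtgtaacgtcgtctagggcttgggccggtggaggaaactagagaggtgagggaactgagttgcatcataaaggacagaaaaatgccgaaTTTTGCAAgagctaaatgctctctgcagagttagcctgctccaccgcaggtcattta
Gm26674: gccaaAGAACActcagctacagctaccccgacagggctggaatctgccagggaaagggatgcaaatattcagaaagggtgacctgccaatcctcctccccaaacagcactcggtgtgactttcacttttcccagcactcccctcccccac
The Fetub and Gm47596 windows held none of the 15 strings, the Jmjd1c and Gm26674 windows a lone GR hexamer and the Ccni window a C/EBP string.

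The next set shows sites with a palindromic GRE, the classic element, which few members had. The windows were at AC170187.1 (chr19:40190799-40190948, plus strand), Stx17 (chr4:48124691-48124840, plus strand) and Uxt (chrX:20961445-20961594, minus strand).
AC170187.1: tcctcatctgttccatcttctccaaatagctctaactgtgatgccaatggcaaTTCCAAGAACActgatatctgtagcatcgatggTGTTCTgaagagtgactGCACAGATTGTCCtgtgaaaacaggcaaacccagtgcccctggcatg
Stx17: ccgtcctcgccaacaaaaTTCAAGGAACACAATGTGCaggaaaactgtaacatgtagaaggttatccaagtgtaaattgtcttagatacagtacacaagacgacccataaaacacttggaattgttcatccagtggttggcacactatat
Uxt: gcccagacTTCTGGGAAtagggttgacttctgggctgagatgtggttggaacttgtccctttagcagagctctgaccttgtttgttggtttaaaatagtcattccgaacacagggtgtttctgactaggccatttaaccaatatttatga
At Uxt the element lay outside the 150 bp shown, and only a STAT string is in capitals.

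The commonest kind of member was a CpG-rich promoter, shown by sites that carry the ETS string. These 3 were picked for display after the values were seen, as the highest-ranked with that string in a window that touched no untranslated region. They lay at Kifc5b (chr17:26916867-26917016, plus strand), at the shared start region of Snora78, Snhg9 and the ribosomal protein gene Rps2 (chr17:24719898-24720047, minus strand) and at Lztfl1 (chr9:123717645-123717794, minus strand).
Kifc5b: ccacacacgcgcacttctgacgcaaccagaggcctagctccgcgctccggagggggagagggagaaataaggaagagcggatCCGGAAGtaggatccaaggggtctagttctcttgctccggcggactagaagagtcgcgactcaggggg
Snora78: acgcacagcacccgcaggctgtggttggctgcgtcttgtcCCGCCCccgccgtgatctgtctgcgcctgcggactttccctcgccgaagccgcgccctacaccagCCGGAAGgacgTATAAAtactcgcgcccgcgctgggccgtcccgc
Lztfl1: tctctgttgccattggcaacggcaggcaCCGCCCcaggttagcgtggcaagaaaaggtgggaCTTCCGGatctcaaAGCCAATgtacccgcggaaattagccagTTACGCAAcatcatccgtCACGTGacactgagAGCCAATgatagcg
The Kifc5b window held 12 CpG pairs, the Snora78 window 20 and the Lztfl1 window 10, against 0 in the Gm47596 window.

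The share of NR+CORT-only sites at starts, 32.3%, compares with 25.04% of all 51431 sites, 38.0% of the 8097 sites held by all groups and 21.2% of the 4694 sites held by CR and NR+CORT but not by NR. A promoter location therefore was more common among NR+CORT-only sites than among all sites and less common than among sites held by every group, as counts of these lists and without a test. The libraries themselves differed in this respect. Of the regions of a list, 29.5% and 43.3% lay at starts in NR, 31.6% and 29.8% in CR, and 32.9% and 27.6% in NR+CORT. The NR+CORT mean of 30.2% ± 3.76 (SD, n = 2) differed by -6.14 points from the NR mean of 36.4% ± 9.75 (SD, n = 2) (two-sided exact permutation test over libraries, p = 0.667). Its difference from the CR mean of 30.7% ± 1.25 (SD, n = 2) was -0.428 points (exact permutation test, p = 1). No p below 0.33 can come from 2 libraries against 2. The second difference turned round when every library contributed the 12458 regions with the smallest p-values, the length of the shortest list. NR+CORT then stood at 37.8% and 34.6% and CR at 25.02% and 26.1%, 10.6 points lower (exact permutation test, p = 0.33, the smallest possible), and NR at 30.6% and 43.3%.

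Most NR+CORT-only promoter sites were not bare of peaks outside NR+CORT. A peak in NR replicate 1 was present at 2037 of the 2529 sites (80.5%, exact 95% binomial interval 78.9 to 82.1), in NR replicate 2 at 62 (2.45%, 1.88 to 3.13), in CR replicate 1 at 790 (31.2%, 29.4 to 33.1) and in CR replicate 2 at 305 (12.1%, 10.8 to 13.4). These intervals and all others given for shares cover counting error only. Of all 51431 sites, 67.6%, 22.3%, 40.3% and 33.7% had a peak in these libraries, in the same order. By the choice, no member could have a peak in both libraries of NR or in both of CR. The NR group failed to hold these sites mainly through its second library, whose list of 12458 regions was the shortest of the 6 against 36234 regions in NR replicate 1. NR replicate 1 was the lone other library with a peak at 1057 sites (41.8%), and shared the site with CR replicate 1 at 704 (27.8%) and with CR replicate 2 at 276 (10.9%). No NR or CR library had a peak at 343 sites (13.6%), called strict sites here. NR replicate 1 and both NR+CORT libraries carried names of one style, and NR replicate 2 and both CR libraries names of another. The labels do not say whether this marks a batch, so library style and the difference between NR+CORT and CR cannot be told apart. Without NR replicate 2, when NR replicate 1 alone stood for the control, the number of members fell to 493. Without NR+CORT replicate 1 it was 4789.

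**Figure D1:**
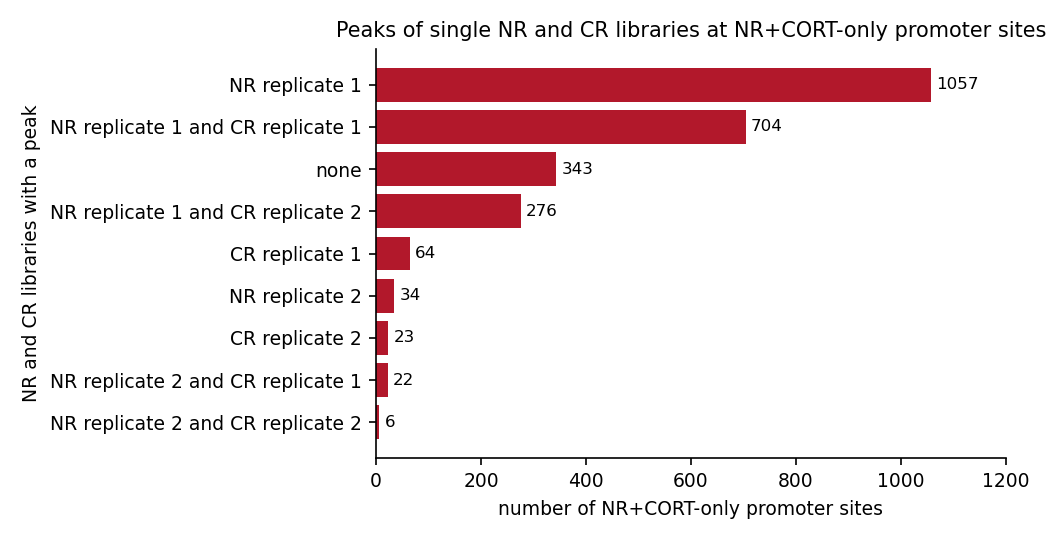
Number of NR+CORT-only promoter sites (x axis) by the NR and CR libraries that had a peak there (y axis, 1 bar for each combination found). NR replicate 1 alone accounts for 1057 of 2529 sites, and 343 sites had no NR or CR peak.

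Away from starts the same library was present less often. A peak in NR replicate 1 was found at 69.1% of the 5299 NR+CORT-only sites away from starts, in NR replicate 2 at 1.38%, in CR replicate 1 at 30.4% and in CR replicate 2 at 12.4%. The choice of the sites used these same lists, so that the shares at starts and away from them describe the choice and were not tested. Sites are not replicate animals, and in whole liver fewer cells with GR at a site and less GR per cell cannot be told apart.

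The peaks at these sites were of middling height. Fold enrichment, the peak caller's ratio of fragments at the summit to local background, is comparable only within a list and was therefore turned into a percentile of that list. The median percentile of the members was 37.9 (quartiles 20.8 and 55.9) in NR+CORT replicate 1 and 52.7 (35.0 and 67.5) in NR+CORT replicate 2. In fold enrichment the medians were 5.36 and 5.39, with ranges of 2.77 to 28.8 and 2.57 to 28.2. At the summit the caller had counted a median of 10 fragments in replicate 1 and 17 in replicate 2, counts rebuilt from the fold enrichment and p-value of each peak. Only 14 members (0.554%) stood in the top 10% of the list of replicate 1 and 22 (0.870%) in that of replicate 2. Promoter sites held by all groups had medians of percentile 81.6 and 84.3 in the same lists and 867 and 1040 of those 3078 sites stood in the top 10%. Their median summit counts were 22 and 31 fragments, over the 2744 and 2350 sites with a p-value from which the count could be rebuilt. A site held by all groups needed a peak in every list, which favours strong peaks. The lower ranks of the members are thus partly set by the choice.

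The peaks that single NR and CR libraries had at the members had these places in their own lists. In NR replicate 1 the 2037 peaks had a median percentile of 40.3 and a median fold enrichment of 5.03, and the same sites had medians of 41.2 and 54.8 in NR+CORT replicates 1 and 2. At 914 of them (44.9%) the peak ranked lower in NR replicate 1 than in both NR+CORT libraries, and at 444 (21.8%) it ranked above both. In CR replicates 1 and 2 the medians were 20.3 and 19.3, and 591 of 790 peaks (74.8%) and 230 of 305 (75.4%) ranked below both NR+CORT libraries. The 62 peaks of NR replicate 2 had a median percentile of 16.9. The choice of the members bears on these ranks, since a peak of any NR or CR library at a member is one that the other library of its group lacked, while both NR+CORT libraries had to have one. Percentiles also come from lists of 12458 to 39136 regions, so that nothing about the groups is read from them.

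**Figure D2:**
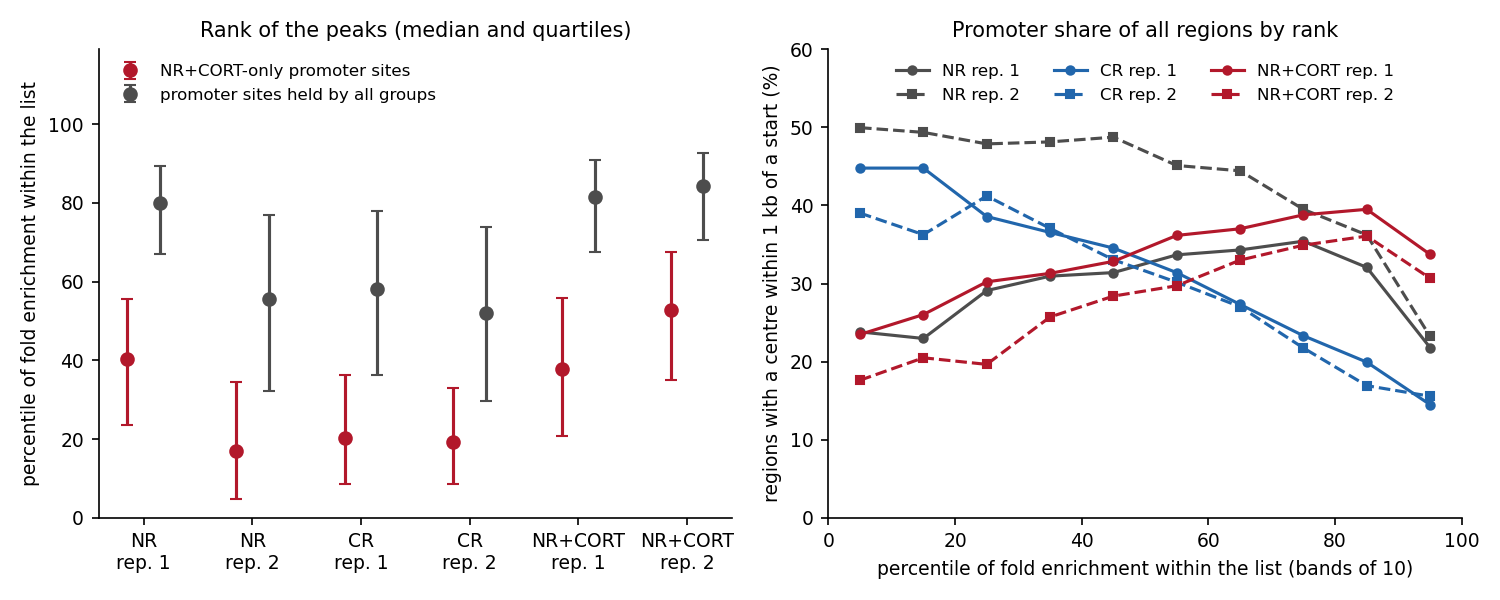
Left, percentile of fold enrichment within each list (y axis, dots are medians and bars quartiles) at NR+CORT-only promoter sites and at promoter sites held by all groups, for the peaks each library had there. Right, share of all regions of a list with a centre within 1 kb of a start (y axis, percent) by percentile band (x axis). Promoter regions thin out toward the top of both CR lists and of NR replicate 2, and thicken up to the band of percentiles 70 to 90 in NR replicate 1 and both NR+CORT lists.

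Ranks also placed promoters differently in the lists at large. In CR replicate 1 the share of regions at starts fell from 44.8% in the lowest band of 10 percentiles to 14.5% in the highest, in CR replicate 2 from 39.02% to 15.6%, and in NR replicate 2 from 49.96% to 23.2%. In NR+CORT replicate 1 it went from 23.5% in the lowest band to 39.5% in the band from 80 to 90 and 33.7% in the highest. NR+CORT replicate 2 had 17.6%, 36.1% and 30.7% in those bands, and NR replicate 1 had 23.8%, 32.1% and 21.8%. A control library and both NR+CORT libraries shared the rise toward the upper bands, which the other 3 libraries did not. In the highest band the NR+CORT libraries stayed above their lowest band. NR replicate 1 ended below its lowest band, as the other 3 libraries did.

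Both NR+CORT libraries mostly placed the summit close by. Their summits lay a median of 72 bp apart at the members, and within 100 bp at 59.8% of them. At promoter sites held by all groups the median was 50 bp and the share 66.5%. Spearman's rho between the percentiles of both NR+CORT lists was 0.447 over the 2529 members and 0.635 over the 3078 sites held by all groups, given as a description since sites share their libraries. The percentile was higher in replicate 2 at 1804 members (71.3%).

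Relative to the nearest start, the summits centred on the start itself. Their median position was -6 bp (quartiles -122 and 95 bp, negative upstream), 47.8% lay within 100 bp of a start and 51.5% lay upstream. Summits of promoter sites held by all groups had a median position of -45 bp and 60.9% lay upstream. The summit of a member fell in an untranslated region in 28.4%, in a coding exon in 7.87%, in an intron in 26.5% and in intergenic sequence in 31.9% of cases. The median length of a member site was 715 bp, and 89.7% had their centre within 500 bp of a start. A divergent pair of starts within the window was present at 414 members (16.4%), and more than 1 gene at 22.97%. Of the 2529 nearest starts 2167 (85.7%) belonged to protein-coding genes, 94 to lincRNAs, 66 to antisense transcripts, 24 to miRNAs and 12 to snoRNAs. A total of 2252 members (89.0%) had a protein-coding start within 1 kb.

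**Figure D3:**
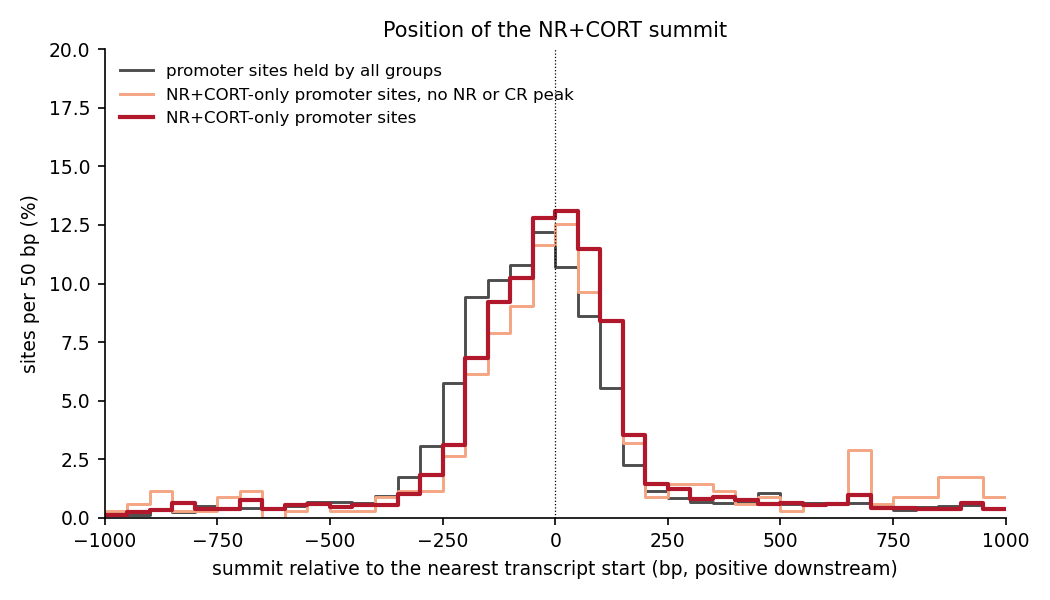
Position of the NR+CORT summit relative to the nearest transcript start (x axis, bp, positive downstream) as the share of sites in bins of 50 bp (y axis), for NR+CORT-only promoter sites, the strict sites among them and promoter sites held by all groups. All 3 curves peak within 100 bp of the start, and that of the sites held by all groups is shifted upstream, with a median of -45 bp against -6 bp at the NR+CORT-only promoter sites.

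The limit of 1 kb was arbitrary for a few sites. Just inside it stood sites at Gm12744, Clk1 and Mospd4, with their centres 1000, 999 and 998 bp from a start. Their fold enrichment was 4.94 and 6.37, 3.17 and 2.62, and 4.43 and 3.801 in NR+CORT replicates 1 and 2. Just outside lay sites near Ppp1r1b, Slc3a1 and Dcaf6, at 1001, 1005 and 1005 bp, with 4.98 and 3.21, 3.72 and 3.42, and 4.85 and 4.78.

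Most windows under the summits were rich in G, C and CpG pairs. Mean GC content in 200 bp windows was 59.7% ± 9.05 (SD over 2528 windows), and the median ratio of observed to expected CpG pairs was 0.733. A window was called CpG-rich at a GC content of at least 50% and a ratio of at least 0.6. By this measure 1579 members (62.5%, 60.5 to 64.4) were CpG-rich, against 65.0% (63.2 to 66.6) of promoter sites held by all groups, 49.4% (46.2 to 52.6) of promoter sites held by CR and NR+CORT, and 49.8% of windows centred on all 41493 starts of protein-coding genes. All starts include those of 11286 genes, of 21951, that had no region of any library there. They are thus not matched to the members, here or for the strings below. Where 1 library sufficed for a group to hold a site, the CpG-rich share of the members fell to 34.8%, below that of all starts. NR+CORT-only sites away from starts were CpG-rich in 2.68%. Among the 342 strict sites with a window the share was 50.9% (45.4 to 56.3), close to that of all starts. CpG-rich members had a peak in NR replicate 1 at 83.1% and the other members at 76.4%. The mitochondrial genome held 1 member, which has no window, and the strict site at Gm13340 and Gm13339 (chr2:22589502-22589837) had 71.9% of its 30-letter words in the mitochondrial genome as well, so that its reads may belong there.

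Consensus strings were searched on both strands of these windows. GR was represented by the palindromic GRE, with 3 free bases between its arms, and by a hexamer, AGAACA, which can overlap a palindrome. Factors of promoters were represented by ETS (CCGGAAG), a family common at promoters of widely used genes, SP/KLF (GGGCGG), a zinc finger family of GC boxes, NRF1 (GCATGCGC), named for nuclear respiratory genes, NFY (AGCCAAT), which binds the CCAAT box, YY1 (AAGATGGCG), often found just downstream of starts, the cyclic AMP response element CRE (TGACGTCA), the E-box of clock and MYC factors (CACGTG), a Kaiso-type palindrome (TCTCGCGA) and the TATA box of the core promoter (TATAAA). Factors of liver and signals were represented by STAT (TTCNNNGAA), which carries cytokine and growth hormone signals, FOX (TGTTTAC), the forkhead family of FOXO1, HNF4 (CAAAGTCCA), a nuclear receptor of hepatocytes, and C/EBP (TTGCNNAA), a family of metabolic and acute-phase genes. A match is a description of the letters and not a binding site.

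Few members held a string of GR itself. The palindromic GRE was present in 18 windows (0.712%, 0.423 to 1.12), against 1.92% (1.46 to 2.47) of promoter sites held by all groups, 1.91% (1.56 to 2.31) of NR+CORT-only sites away from starts and 0.219% (0.177 to 0.269) of all protein-coding starts. It was 1.51% (0.847 to 2.48) of promoter sites held by CR and NR+CORT, an interval that overlaps that of the members. Among members chosen without NR replicate 2 it was 1.83%, and among those from lists of equal length 0.106%. At strict sites it was 8 of 342 windows (2.34%, 1.02 to 4.56). The string reversed letter by letter, a control of equal composition, was found in 0.119% of members. The hexamer was present in 9.18% (8.08 to 10.4) of members, 10.8% of promoter sites held by all groups, 10.5% of all starts and 20.9% of sites away from starts. Within CpG-rich windows it was present in 6.71% of members, 5.91% of sites held by all groups and 4.28% of all starts. Outside CpG-rich windows the order was reversed, with 13.3% of members, 19.8% of sites held by all groups and 16.8% of all starts. The reversed hexamer stood in 6.49% of members and 7.67% of all starts. Of the 18 members with a palindromic GRE, 9 had a peak in NR replicate 1 and 2 a peak in CR replicate 1, against 80.8% and 31.4% of the other members.

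The strings of promoter factors were common. ETS was found in 327 members (12.9%, 11.7 to 14.3), which exceeded the 9.49% (8.48 to 10.6) at promoter sites held by all groups and the 9.09% (8.81 to 9.37) at all starts. Within CpG-rich windows it was again most frequent at the members, with 18.2%, against 12.9% of sites held by all groups and 15.4% of all starts. Within 25 bp of the middle of the window, the summit of a member or the start itself, it was present in 3.01% of members and 3.72% of all starts. The reversed ETS string stood in 4.15% of members. Where 1 library sufficed for a group to hold a site, the ETS share of the members fell to 6.92%, below that of all starts. With lists of equal length the share was 10.8%. At strict sites it was 10.8% (7.73 to 14.6), an interval that covers the 9.49% and the 9.09% above. SP/KLF was present in 1059 members (41.9%, 39.96 to 43.8), close to all starts at 40.03% (39.6 to 40.5) and below the 51.4% (49.6 to 53.2) at sites held by all groups. The reversed SP/KLF string was as frequent, in 42.4% of members. In CpG-rich windows SP/KLF was present in 53.6% of members, 66.8% of sites held by all groups and 66.7% of all starts. NFY was present in 7.08% of members and 5.63% of all starts, NRF1 in 2.61% and 2.39%, and YY1 in 2.02% and 1.91%. CRE was present in 1.503% of members and 1.78% of all starts, the E-box in 6.57% and 5.09%, and the Kaiso-type palindrome in 1.38% and 0.995%. Promoter sites held by all groups had NFY in 7.05%, NRF1 in 3.64% and YY1 in 1.43%. They had CRE in 2.02%, the E-box in 7.74% and the Kaiso-type palindrome in 1.24%. At least 1 of the ETS, SP/KLF, NRF1, NFY, YY1 and CRE strings occurred in 1357 members (53.7%), a GR string in 244 (9.65%) and none of the 15 strings in 764 (30.2%). These combinations were counted at the members alone, so that their shares have no other set beside them and nothing is read from them.

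Strings of liver and signal-dependent factors were less frequent at the members than at NR+CORT-only sites away from starts. C/EBP stood in 7.63% (6.63 to 8.74) of members and 20.2% (19.1 to 21.3) of sites away from starts, STAT in 5.81% (4.93 to 6.80) and 13.1% (12.2 to 14.1), and FOX in 2.02% (1.51 to 2.64) and 5.81% (5.20 to 6.48). Outside CpG-rich windows these pairs were 12.9% and 20.5% for C/EBP, 8.85% and 13.4% for STAT, and 3.79% and 5.89% for FOX. The reversed strings stood in 3.09% and 1.92% for C/EBP, 4.47% and 6.30% for STAT, and 1.34% and 4.53% for FOX. At all starts C/EBP stood in 5.36%, STAT in 4.82% and FOX in 1.68%, and HNF4 was rare, in 0.514% of members and 0.352% of all starts. TATA was present in 3.36% (2.69 to 4.14) of members and 7.19% (6.94 to 7.44) of all starts, and the reversed TATA string in 3.84% and 6.16%.

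**Figure D4:**
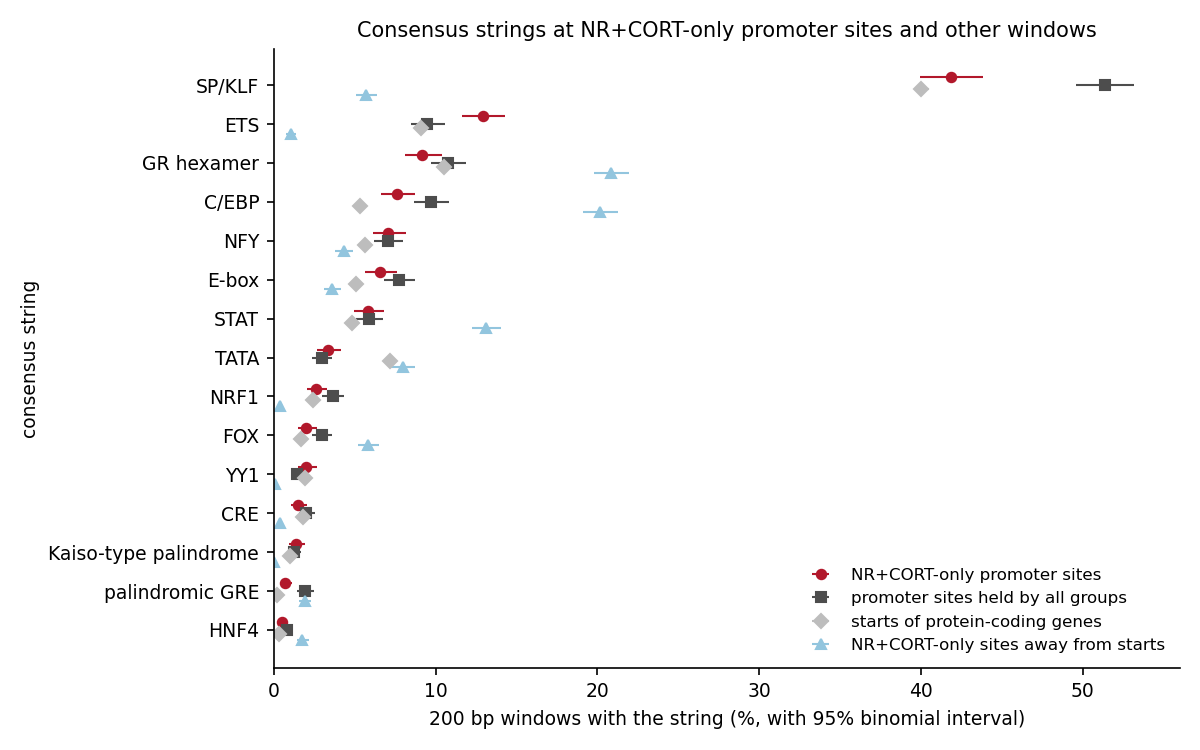
Share of 200 bp windows that hold each consensus string (x axis, percent, bars are exact 95% binomial intervals) at NR+CORT-only promoter sites, at promoter sites held by all groups, at starts of protein-coding genes and at NR+CORT-only sites away from starts. ETS is more frequent at the NR+CORT-only promoter sites (12.9%) than in the other 3 sets, and the GR hexamer and C/EBP are most frequent away from starts.

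A FOXO1 region of CR liver overlapped 161 members (6.37%, 5.45 to 7.39), against 13.9% of all sites. Among members chosen from lists of equal length the share was 12.8%, at q-values up to 1e-05 it was 11.7%, without NR replicate 2 it was 3.85%, and it was 1.62% where 1 library sufficed for a group to hold a site. The FOXO1 list was called on merged libraries at a far stricter q-value than the GR lists. FOXO1 overlapped 35.2% (33.5 to 36.9) of promoter sites held by all groups, 18.9% (16.5 to 21.5) of promoter sites held by CR and NR+CORT, and 6.47% (5.83 to 7.17) of NR+CORT-only sites away from starts. FOXO1 was mapped in CR livers alone, and by the choice of the members no site had a GR peak in both CR libraries, so that the low share at the members cannot be told apart from their absence in CR. The share was 9.11% (7.20 to 11.3) at members with a peak in CR replicate 1 and 5.12% (4.13 to 6.26) at members without. By rank, it was 4.86% (3.51 to 6.54) in the lowest 843 members and 8.78% (6.96 to 10.9) in the highest 843.

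The highest-ranked members lay at genes of varied function. Fold enrichments here and below show which libraries had a peak, and are not comparable between libraries. At Fetub (chr16:22918351-22919409, summit in an intron), which encodes the liver-secreted protease inhibitor fetuin-B, fold enrichment was 19.4 and 25.3 in NR+CORT replicates 1 and 2 and 5.14 in NR replicate 1, with no peak in the other libraries. The site at Jmjd1c (chr10:67126182-67127412), a gene for a chromatin protein of the histone demethylase family, had 17.7 and 23.6, and 5.57 in NR replicate 1. In NR replicate 1 Fetub stood at percentile 42.5 against 93.1 and 96.5 in NR+CORT, and Jmjd1c at 48.7 against 91.5 and 95.9. Both were picked for a high NR+CORT rank, so that the choice favours this order.
Gm47596 (chr9:45112865-45113640), an uncharacterised transcript, had 17.7 and 28.2 and no peak in any NR or CR library. At BC005624 (chr2:30981682-30982536), which shares its start region with the deubiquitinase gene Usp20, the values were 17.8 and 21.8, with 8.96 in NR replicate 1 and 5.23 in CR replicate 1. Orm3 (chr4:63355199-63357963), a gene of the orosomucoid acute-phase proteins, had 16.8 and 21.5, with 5.57 in NR replicate 1 and 5.01 in CR replicate 2. The Orm genes are near-copies of each other, so that reads can be hard to assign among them.
Elovl1 (chr4:118427602-118428685), which encodes an elongase of very long fatty acids, went against this order. Its fold enrichment was 26.0 and 13.2 in NR+CORT, 14.2 in NR replicate 1 and 4.63 in CR replicate 1. In NR replicate 1 it stood at percentile 91.5, between percentiles 96.7 and 87.4 of the NR+CORT lists. Pgk1, the gene of a glycolytic kinase, had 15.5 and 18.2 in NR+CORT, 7.71 in NR replicate 1 and 4.200 in CR replicate 1. The other sites among the first 10 were at Gm10390, Dcaf15 and Snx11, with fold enrichments of 14.6 to 17.7 in NR+CORT.

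Among the strict sites, which no NR or CR library shared, the highest after Gm47596 was at Txlng (chrX:162829250-162829967), with 11.6 and 12.9 in NR+CORT replicates 1 and 2. Cenpm (chr15:82244258-82244793), a gene of the centromere, had 15.2 and 8.45, and Ccni (chr5:93205185-93205889), a cyclin gene, 14.1 and 7.05. The libraries lay further apart at Gm26674 (16.5 and 6.07, percentiles 89.9 and 59.1) and AC170187.1 (16.6 and 5.71, percentiles 90.2 and 55.8). Gm13340, with the mitochondrial-like sequence, had 7.73 and 11.9, Gm45871 9.26 and 7.89, Snx32 had 7.81 and 8.03, and Cyp4a32 (chr4:115600349-115601491), a cytochrome P450 of the fatty acid hydroxylase family, 9.45 and 6.41. The Cyp4a genes lie in a cluster of similar copies. As a whole the strict sites were weaker than the other members, with median percentiles of 23.3 and 36.2 in NR+CORT replicates 1 and 2 and median summit counts of 8 and 13 fragments, and 23.9% of them stood in the lowest 10% of the list of replicate 1. Choosing sites absent from every NR and CR list itself favours weak peaks.

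The members with FOXO1 that ranked highest, after Orm3 and Elovl1, were at Trappc6a (16.9 and 14.6 in NR+CORT, 9.61 in NR replicate 1), Tedc1 (14.2 and 15.97, with 5.06 in NR replicate 1 and 5.09 in CR replicate 2) and Tom1 with its antisense transcript Gm45822 (15.6 and 13.7, with 13.4 in NR replicate 1 and 3.91 in CR replicate 1). Trappc6a serves vesicle transport, and Tom1 endosomal sorting. Those with a palindromic GRE, after AC170187.1, were at Ccdc189 and Rnf40 (9.01 and 8.53), Uxt (11.1 and 6.07), Stx17 (9.23 and 6.02) and Gm30173 (6.98 and 8.12), all in NR+CORT. NR replicate 1 had peaks of 5.83 at Ccdc189, 5.57 at Uxt and 4.79 at Stx17, and CR replicate 2 one of 3.69 at Ccdc189. Stx17 encodes a syntaxin of autophagosome fusion.

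Genes were then counted by function. A member lay within 1 kb of a start of 2504 of 21951 protein-coding genes (11.4%), and a promoter site held by all groups at 3067 (14%). A stretch of promoter is counted in 1 class alone, and 93 genes had both. A region of at least 1 library lay at the starts of 10665 genes (48.6%), and of these 23.5% had a member. Without NR replicate 2 the share of genes with a member was 2.16%, and without NR+CORT replicate 1 it was 18.8%. Shares of a list are set beside these figures, with no test, because genes were grouped with results of these data known. Fold enrichments at the genes named below were not compared between libraries, and the genes were picked for a high NR+CORT rank.

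Cytosolic ribosomal proteins had the highest share of all 27 lists, with a member at 33 of 84 genes (39.3%), and sites held by all groups at 13 (15.5%). Since 81 of these genes had a region of some library at a start, the share among them was 40.7%, against 23.5% over all such genes. At Rpl10 the fold enrichment was 9.41 and 13.9 in NR+CORT replicates 1 and 2 and 8.13 in NR replicate 1. At Rps2 it was 7.72 and 14.5, with 2.995 in NR replicate 2, and at Rps16 it was 5.75 and 11.6, with 3.61 in NR replicate 2 and 6.33 in CR replicate 1. By percentile, NR+CORT stood above the other library with a peak at Rps2 (62.1 and 89.5 against 3.74), whereas Rpl10 stood as high in NR replicate 1 (72.3) as in NR+CORT replicate 1 (72.0) and below replicate 2 (88.7). Both genes were picked for their NR+CORT rank, which favours higher percentiles in NR+CORT.

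Aminoacyl-tRNA synthetases, which charge transfer RNAs, followed with 12 of 34 genes (35.3%). Among those with a region of some library at a start the share was 36.4%, against 23.5% over all such genes. Mars had fold enrichments of 8.64 and 8.74 in NR+CORT and 5.91 in NR replicate 1, and Nars2 had 11.7 and 6.20, with 7.34 in NR replicate 1 and 5.62 in CR replicate 1. Of the translation initiation factors 15 of 55 (27.3%) had a member, and of those with any region 30.6%. More of them, 18 (32.7%), had a site held by all groups, against 6 (17.6%) of the synthetases. Eif2b2, a subunit of the exchange factor of initiation, had 9.65 and 8.08 in NR+CORT and 4.03 in CR replicate 1. Eif2ak4, which encodes an amino acid sensing kinase that restrains initiation, had 9.35 and 9.52, with 7.18 in CR replicate 1 and 3.46 in NR replicate 1.

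Subunits of the respiratory chain and ATP synthase had a member at 22 of 81 genes (27.2%), and a site held by all groups at 20 (24.7%). Cox5b, a subunit of complex IV, had 8.95 and 9.77 in NR+CORT, 4.13 in CR replicate 1 and 3.03 in NR replicate 2. Ndufv3, of complex I, had 7.31 and 10.8, with 4.71 in NR replicate 1 and 3.76 in CR replicate 1. Mitochondrial ribosomal proteins had 17 of 78 (21.8%), led by Mrps14 with 8.03 and 7.46, 4.63 in NR replicate 1 and 2.93 in CR replicate 1. Among genes with any region the shares were 30.6% for the respiratory chain and 23.6% for mitochondrial ribosomal proteins, the latter close to the 23.5% of all such genes.

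Genes of DNA repair and replication had a member at 23 of 85 (27.1%), RNA polymerase II and Mediator genes at 21 of 82 (25.6%), proteasome genes at 11 of 48 (22.9%) and splicing genes at 18 of 83 (21.7%). Sites held by all groups lay at 21.2%, 22.0%, 14.6% and 30.1% of these lists, in the same order, and outnumbered members among splicing genes. Among genes with any region the shares with a member were 31.1%, 28.4%, 25% and 23.4%, against 23.5% over all such genes. Med1, the Mediator subunit that nuclear receptors contact, had 9.54 and 11.2 in NR+CORT and 6.50 in NR replicate 1. Xrcc4, of DNA end joining, had 9.27 and 9.91, and 3.51 in NR replicate 1. Psme1, a proteasome activator, had 9.45 and 8.35, with 5.99 in NR replicate 1 and 5.01 in CR replicate 2. The splicing protein gene Snrpd2, which shares its start region with Qpctl, had 13.8 and 9.33, with 4.74 in NR replicate 1 and 4.01 in CR replicate 1.

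Heat shock proteins and chaperones had a member at 17 of 94 genes (18.1%), ubiquitin-conjugating enzymes at 7 of 37 (18.9%), genes of the unfolded protein response at 4 of 24 (16.7%), autophagy genes at 6 of 36 (16.7%), zinc finger proteins at 64 of 391 (16.4%), chromatin modifiers at 13 of 90 (14.4%), RAB GTPases at 8 of 59 (13.6%) and solute carriers at 48 of 371 (12.9%). Among genes with any region the shares ran from 16.5% of chromatin modifiers to 24.9% of solute carriers, against 23.5% over all such genes. Hspa5, the chaperone of the endoplasmic reticulum, had 10.9 and 11.8 in NR+CORT, 4.51 in NR replicate 1 and 4.86 in CR replicate 2. Hsph1, a cytosolic chaperone, had 12.04 and 13.5, with 5.34 in NR replicate 1 and 6.61 in CR replicate 1. Slc39a1, a zinc importer, had 12.6 and 12.4, with 4.81 in NR replicate 1 and 5.17 in CR replicate 1. Sites held by all groups were more common than members in these lists, from 14.3% of solute carriers to 33.3% of genes of the unfolded protein response, except among zinc finger proteins (14.6%).

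In the next 5 lists more genes had a promoter site held by all groups than had a member. Of 24 classic GR targets 2 (8.33%) had a member and 14 (58.3%) a promoter site held by all groups. Of 19 core clock genes none had a member and 14 (73.7%) had a site held by all groups, and of 24 genes of secreted liver proteins none had a member and 12 (50%) had such a site. Gluconeogenesis and amino acid catabolism had 1 of 21 (4.76%) against 8 (38.1%), and cytochrome P450 genes 8 of 98 (8.16%) against 18 (18.4%). The classic targets with a member were Dusp1, which encodes a phosphatase that dampens MAP kinases, and Nr3c1, the gene of GR itself. At Dusp1 the site also lay at the start of Ergic1 and had 9.41 and 5.35 in NR+CORT, 5.78 in NR replicate 1 and 4.34 in CR replicate 2. At Nr3c1 the values were low, 5.43 and 3.95 in NR+CORT and 3.42 in NR replicate 1. Arg1, which encodes arginase of the urea cycle, was the lone gluconeogenesis and amino acid gene, with 4.48 and 3.16 and no peak elsewhere.

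Signalling lists had both kinds of site. A member lay at 6 of 22 JAK-STAT genes (27.3%) and 7 of 25 genes of insulin and mTOR signalling (28%), and a site held by all groups at 40.9% and 56%. Among genes with any region a member lay at 31.6% and 28%, against 23.5% over all such genes. Tyk2, a kinase of JAK-STAT signalling, had 9.36 and 12.2 in NR+CORT and 2.74 in NR replicate 1, which stood at percentile 0.184 of its list. Stat5a, a mediator of growth hormone signals, had 8.20 and 8.74, and 6.28 in NR replicate 1. At Mtor, the kinase of the mTOR complexes, the values were 9.91 and 10.2, with 3.08 in NR replicate 1 at percentile 5.44. In NR+CORT both Tyk2 and Mtor stood at percentiles of 71.6 to 85.6. They were picked for their rank there, so that nothing is read from the lower ranks in NR replicate 1. Hepatocyte identity factors had a member at 3 of 18 genes (16.7%) and a site held by all groups at 9 (50%). Among those with any region the share with a member was 18.8%. Foxa3 had 9.52 and 13.4 in NR+CORT, 6.13 in NR replicate 1 and 4.08 in CR replicate 1, and overlapped FOXO1.

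Markers of other liver cells and olfactory receptor genes had few regions of any library, so that members could hardly occur there. None of 18 markers of immune, endothelial, stellate and bile duct cells had a member, and 2 had a region of some library at a start. Of 1093 olfactory receptor genes 1 (0.0915%) had a member, at Olfr1033, with 5.54 and 6.39. Only 5 olfactory receptor genes had a region of some library, and 20% of these had a member, against 23.5% over all such genes.

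**Figure D5:**
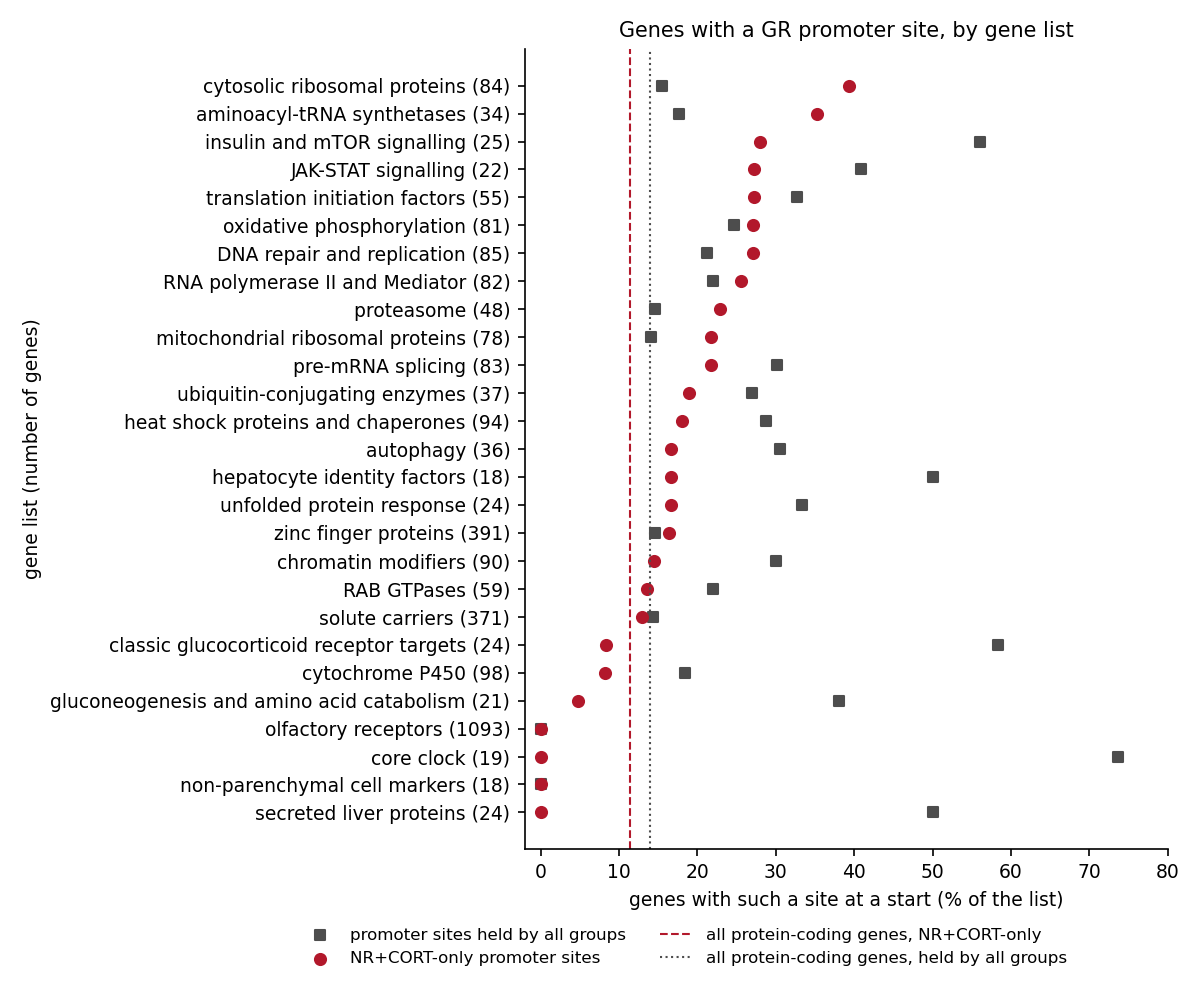
Share of the genes of each list (x axis, percent) with an NR+CORT-only promoter site or with a promoter site held by all groups at a start, for 27 gene lists (y axis, number of genes in brackets). Vertical lines give the shares over all protein-coding genes, 11.4% and 14%. Ribosomal protein and tRNA synthetase genes stand highest for NR+CORT-only promoter sites, at 39.3% and 35.3%, and clock genes, at 73.7%, for sites held by all groups.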

How the data were processed

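GR was measured by ChIP-seq in 2 libraries each of NR, CR and NR+CORT mouse livers, and FOXO1 in 2 CR libraries given as a merged list. The study's authors aligned paired reads to mm10 with BWA, removed duplicates and ambiguous reads with Picard and Bamtools, called GR peaks per library with MACS2 (q-value up to 0.1), called FOXO1 peaks on merged libraries at a far stricter q-value, and removed blacklisted regions with bedtools. The input control is not given in the sources used here. The deposited lists hold positions, fold enrichment (a linear ratio to local background) and −log10 p and q values, as the authors' peak caller wrote them. Neither read totals nor coverage were used. The lists held 12458 to 36234 distinct regions in NR, 18747 and 22707 in CR and 29473 and 39136 in NR+CORT, and the length of a list limits which sites a group can hold.

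Rows of a list with the same interval were taken as 1 region with its highest summit. Regions of the 6 lists were merged at an overlap of at least 1 bp. Transcript starts were those of GENCODE M21 basic on GRCm38, and sequences were read from that genome. The summit of a site was that of the NR+CORT peak with the higher percentile. Summit counts were rebuilt as the whole number that gives both the deposited fold and p-value, for −log10 p under 60, a step tested on simulated data. Tables were computed with pandas 2.3.3 and NumPy 2.4.6 under Python 3.11.15, intervals with SciPy 1.17.1, sequences were read with pysam 0.24.0 and plots drawn with matplotlib 3.10.9. Promoter shares of the lists were compared by exact permutation over libraries, since libraries are the replicates. All other values are descriptions, with exact binomial intervals. Named sites were the 10 highest members and strict members by mean NR+CORT percentile, up to 3 per gene list, the 5 highest with FOXO1 or a palindromic GRE, and 3 on each side of the 1 kb limit. With 2 replicate numbers there were too few pairs to show whether a shared number pairs libraries.

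The members, gene lists and strings were chosen with earlier results of these data known. The alternatives tried were stricter q-values, lists of equal length, other rules for holding, merging and promoters, other windows, reversed strings and each library left out.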

Additional observations from a re-analysis of the deposited data

How the results depend on the processing

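Membership rests on single libraries: without each library in turn the number of members ranged from 493 (without NR replicate 2) to 4789 (without NR+CORT replicate 1), from 0 to 79.2% of members had a peak in NR replicate 1 (0 without NR replicate 2, by construction), from 3.85 to 6.24% overlapped FOXO1, from 48.5 to 64.1% were CpG-rich, from 0.608 to 1.83% held the palindromic GRE, from 10.5 to 13.4% held ETS and from 2.16 to 18.8% of genes had a member. Without NR replicate 1 its own share has no value. The promoter share of NR+CORT minus NR ranged from -13.0 to 0.755 points, positive without NR replicate 2 alone, and that of NR+CORT minus CR from -3.09 to 2.23, positive without CR replicate 1 (0.456) or NR+CORT replicate 2 (2.23).

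With lists of equal length there were 940 members, of which 20.5% had a peak in NR replicate 1, 12.8% overlapped FOXO1, 71.2% were CpG-rich, 0.106% held the GRE and 10.8% ETS, at 4.78% of genes, and NR+CORT minus CR was 10.6 points. At q up to 1e-05 the shares were 75.1% (NR replicate 1), 11.7% (FOXO1), 70.9% (CpG-rich) and 0.364% (GRE), and NR+CORT minus CR was 8.81. At q up to 0.01 these were 65.0% CpG-rich and 1.66 points. Where 1 library sufficed for a group to hold a site, 0% had a peak in NR replicate 1 by construction, 1.62% overlapped FOXO1, 34.8% were CpG-rich and 6.92% held ETS, at 7.18% of genes. The 343 strict sites had 3.79% FOXO1, 50.9% CpG-rich, 2.34% GRE and 10.8% ETS, at 1.499% of genes. A 3 kb promoter window gave 77.2% with a peak in NR replicate 1, 48.2% CpG-rich and 10.2% ETS, a 500 bp window 66.7% CpG-rich, protein-coding starts alone 67.7% CpG-rich, and sites up to 1000 bp long 76.2% with a peak in NR replicate 1. A 100 bp sequence window gave 58.2% CpG-rich and 5.78% ETS, and the reversed strings 0.119% (GRE) and 4.15% (ETS). The cause of these shifts was not tested.

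With the replicate number as a block, NR+CORT minus NR stayed at -6.14 points (exact permutation p = 1) and NR+CORT minus CR at -0.428 (p = 1), and p could not fall below 0.5. Merging at 50% overlap and placing sites by summit moved no value beyond its interval.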
